A study of Mus musculus with 12 samples.

Results

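The fatty acid elongases and desaturases described here are the genes Elovl1, Elovl2, Elovl3, Elovl5, Elovl6, Fads1, Fads2, Scd1 and Scd2, measured in liver of mice with or without cytochrome P450 reductase and with or without quercetin in the diet. They were chosen by name: every probe set whose annotation gives exactly 1 gene symbol, and gives one of these, is a member. This yields 17 probe sets for 9 genes, 5 elongases and 4 desaturases, out of 22626 probe sets tested and 12393 genes with a symbol of their own. Elovl1 and Scd2 are read by 3 probe sets each, Elovl5, Elovl6, Fads2 and Scd1 by 2 each, and Elovl2, Elovl3 and Fads1 by 1.

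Total RNA from whole liver was hybridised to 12 Affymetrix 430A arrays, a platform on which a set of short oligonucleotide probes reports a transcript. Each array carried RNA pooled from 3 male mice of the C57BL/6 strain, 6 to 8 weeks old, and each of the 4 groups held 3 arrays. The wild-type control group and the POR-null control group ate a soya-free powdered diet throughout. The wild-type quercetin group and the POR-null quercetin group had the same diet for 14 days and then ate it for 24 h with added quercetin, a flavonol of fruit and vegetables, at 6.2 g per kg (a dose given as 7 mg per mouse), before the livers were taken. POR-null means that the gene of cytochrome P450 reductase is disrupted. Which cells lack it, and any promoter or recombinase used for that, is not given in the sources used here. Por itself was not analysed here, and no check of the genotype labels by its level was made. The comparisons ask how the genotype, the quercetin diet and their combination relate to the level of these genes.

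Elongases of the Elovl family carry out the first and rate-setting step of the endoplasmic reticulum cycle that lengthens fatty acyl chains, and each accepts its own range of chain lengths and degrees of unsaturation. Stearoyl-CoA desaturases (Scd) put the first double bond into saturated chains and so make oleic and palmitoleic acid, the main monounsaturated acids of liver triglyceride. The Fads desaturases add double bonds nearer the carboxyl end and work in turn with Elovl5 and Elovl2 to build arachidonic and docosahexaenoic acid from dietary precursors. Desaturases take their electrons from cytochrome b5, which is reduced mainly by cytochrome b5 reductase and can also be reduced by POR. Liver raises many of these genes through the transcription factors SREBP-1c, LXR and ChREBP when carbohydrate and insulin are plentiful.

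All values are the deposited log2 signals. Across the 12 arrays the median of all values was 5.96, with a lower quartile of 4.81 and an upper quartile of 7.19, and arrays of one group correlated at 0.988 to 0.993. The first principal component, with 33% of the variance, ran from -23.7 to -6.11 over the wild-type arrays. Over the POR-null arrays it ran from 0.113, in control array 3, to 23. The second, with 12.4%, placed wild-type control arrays 2 and 3 at -17.7 and -16.2 and array 1 of that group at 12.1. Where leaving both out ends a call described here, the value without them is given. The hepatocyte list, with 7 of its 8 markers measured, had array means between 12.9 and 13.2 in every group, as a liver label implies. None of its genes was called in the genotype comparison.

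Promoter sequence was on hand in RefSeq (build GRCm38.p6) for 5 of the 9 genes, Elovl1, Elovl2, Elovl5, Elovl6 and Fads2, with 7 annotated starts between them. The 250 bases before the start are shown for Elovl5 and Elovl6, whose levels were higher in POR-null liver, and for Fads2, whose level was not called, each 5′ to 3′ on the strand of the gene. Capitals mark matches, on either strand, to 5 motifs. They are the sterol regulatory element read by SREBP proteins, searched as TCACNCCAC, and the E-box core read by ChREBP and other proteins of its fold, searched as CACGTG. The CCAAT box was searched by the letters of its name. The GC box of Sp1 was searched as GGGCGG. The core site of nuclear receptors was searched as AGGTCA. No match of one motif overlaps a match of another in the windows shown.
Elovl5 (chr9:77917115-77917364, plus strand): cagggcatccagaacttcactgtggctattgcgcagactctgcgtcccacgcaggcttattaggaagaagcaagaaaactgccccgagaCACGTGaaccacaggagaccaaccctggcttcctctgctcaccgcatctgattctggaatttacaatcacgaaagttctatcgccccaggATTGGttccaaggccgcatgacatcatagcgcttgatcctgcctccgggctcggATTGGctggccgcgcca
Elovl6 (chr3:129532136-129532385, plus strand): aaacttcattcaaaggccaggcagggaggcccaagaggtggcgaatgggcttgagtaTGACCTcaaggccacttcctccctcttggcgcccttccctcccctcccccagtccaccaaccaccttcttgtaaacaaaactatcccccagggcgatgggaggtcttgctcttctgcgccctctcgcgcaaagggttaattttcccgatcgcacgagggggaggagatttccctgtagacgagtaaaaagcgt
Fads2 (chr19:10101504-10101753, minus strand): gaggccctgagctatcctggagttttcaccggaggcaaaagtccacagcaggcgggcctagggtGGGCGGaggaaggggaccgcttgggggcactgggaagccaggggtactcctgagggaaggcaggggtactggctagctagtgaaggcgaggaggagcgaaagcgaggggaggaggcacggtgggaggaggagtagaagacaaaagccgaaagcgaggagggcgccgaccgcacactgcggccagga
The Elovl5 window held 1 E-box, which begins 161 bases before the start, and 2 CCAAT boxes in reverse, which begin 71 and 17 bases before it. The Elovl6 window held 1 nuclear receptor core site in reverse and the Fads2 window 1 GC box. Over all 32851 promoters with a window of this length, 6.02% held the E-box core, 33.8% a CCAAT box, 32.7% a GC box, 14.0% a nuclear receptor core site and 1.05% the sterol regulatory element. The last was in none of the 7 windows of these genes, which says only that these letters are not there.

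POR-null liver had higher levels of some of these genes than wild-type liver. Only Elovl5, Elovl6 and Scd1 stayed called at each probe set in every alternative fit, averaged over diets. Averaged over the diets, 11 of the 17 probe sets were called higher (limma, adjusted p under 0.05 over all probe sets) and 0 lower, against 7.58% of all probe sets called in either direction. They belong to 6 genes: the elongases Elovl1, Elovl2, Elovl5 and Elovl6 and the desaturases Scd1 and Scd2. The calls of Elovl1, Elovl2 and Scd2 ended in some alternative fits, and 1 probe set each of Elovl1 and Scd2 was not called. The median difference over the 17 probe sets was 0.345 on the log2 scale, against -0.021 over all probe sets, and 16 of the 17 lay above 0. For 7 of them, those of Elovl5, Elovl6 and Scd1 and 1 of Scd2, all 6 POR-null arrays lay above all 6 wild-type arrays, as 1.92% of all probe sets did. Fads1, Fads2 and Elovl3 were not called. Because whole liver was used, a change in the share of cells of one type and a change in RNA per cell cannot be told apart.

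**Figure D1:**
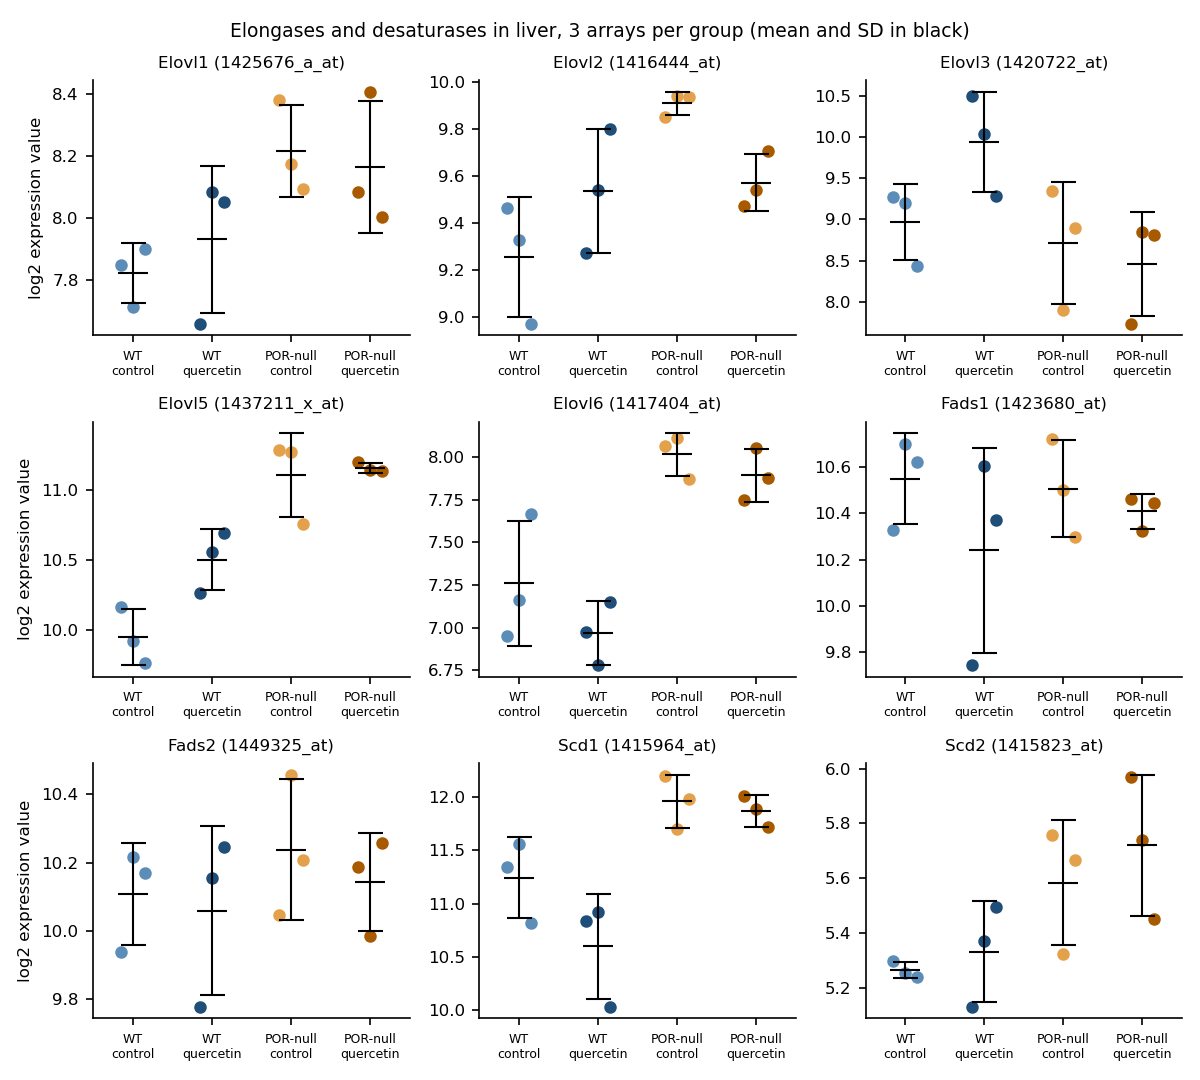
Level of the brightest probe set of each of the 9 genes in the 12 arrays, as deposited log2 signal (vertical axis, with its own scale in each panel, not starting at 0), by group (horizontal axis); each point is 1 array of pooled RNA, and the bars are the group mean and SD. The POR-null points of Elovl5, Elovl6 and Scd1 all sit above the wild-type points, while those of Fads1 and Fads2 overlap them.

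On the control diet alone 5 probe sets were called, all higher in POR-null liver, against 1.16% of all probe sets, and they belong to Elovl2, Elovl5 and Elovl6. On the quercetin diet 6 were called, all higher, against 2.33% of all, and they belong to Elovl1, Elovl5, Elovl6 and Scd1. The median difference over the 17 probe sets was 0.395 on the control diet and 0.387 on quercetin, 15 of 17 lying above 0 each time, against -0.0137 and -0.0247 over all probe sets. The calls of Scd1 and Elovl1 on the quercetin diet and of Elovl2 on the control diet do not show a difference between diets, which is tested further on as the interaction.

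**Figure D2:**
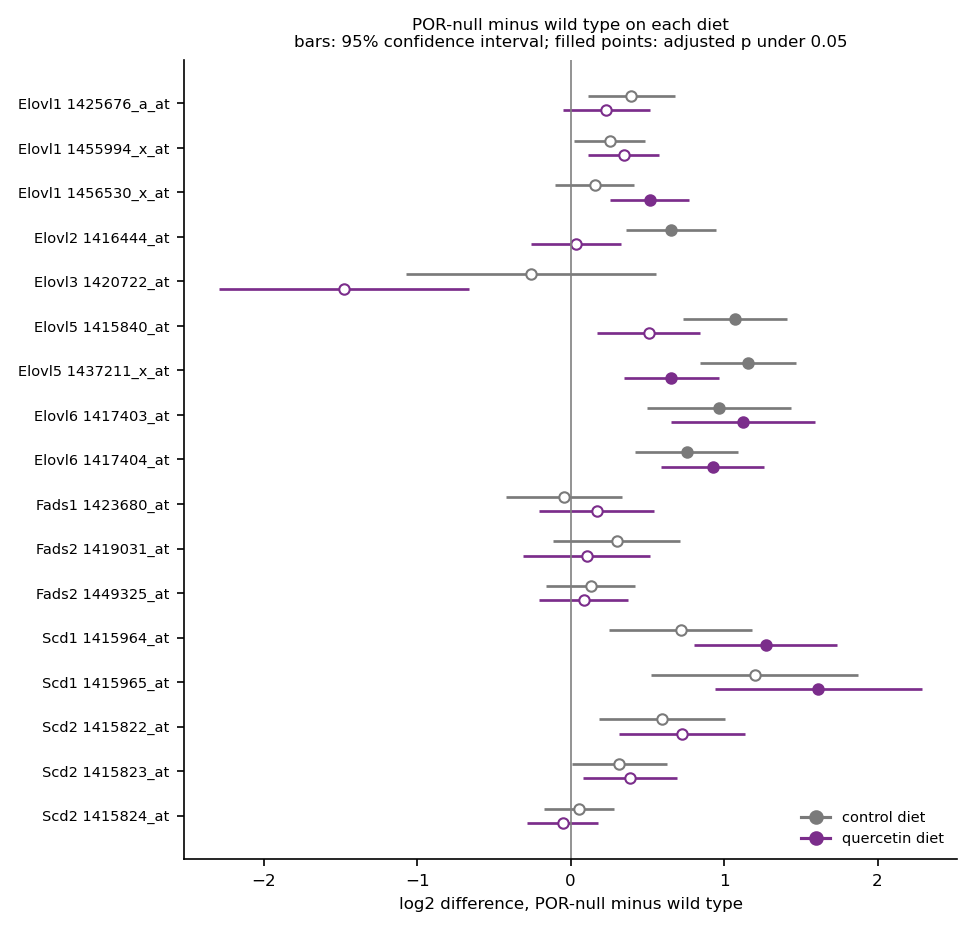
Difference between POR-null and wild-type liver on the control diet (grey) and the quercetin diet (purple) for each probe set, on the log2 scale (horizontal axis); bars are 95% confidence intervals and filled points have an adjusted p under 0.05. Elovl5 and Elovl6 lie to the right of 0 on both diets, and Elovl3 on the quercetin diet is the point farthest to the left, at -1.48.

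Elovl6, which lengthens palmitic to stearic acid and so supplies Scd1 with substrate, was 1.79 to 2.06 times as high by its probe sets in POR-null liver. Its brighter probe set (1417404_at) read 6.95, 7.16 and 7.67 in wild-type control liver and 6.97, 6.78 and 7.15 in wild-type quercetin liver. In POR-null liver it read 8.07, 8.11 and 7.87 on the control diet and 7.75, 8.06 and 7.88 on quercetin. All POR-null arrays were above all wild-type arrays, with wild-type control array 3 the nearest. The difference averaged over diets was 0.84 ± 0.11 (SE, n = 6 against 6 arrays, adjusted p = 0.000676).

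The dimmer Elovl6 probe set (1417403_at) read 5.27, 5.38 and 6.29 in wild-type control liver, 5.11, 5.53 and 5.33 in wild-type quercetin liver, 6.78, 6.77 and 6.30 in POR-null control liver and 6.33, 6.60 and 6.40 in POR-null quercetin liver. Wild-type control array 3, at 6.289, came just below the lowest POR-null array, at 6.295. Its difference was 1.04 ± 0.16 (SE, adjusted p = 0.00131), and the probe sets correlated at 0.957 over the 12 arrays. On the control diet the differences were 0.76 ± 0.16 and 0.97 ± 0.22 (adjusted p = 0.0376 and 0.0489), and on quercetin 0.92 ± 0.16 and 1.12 ± 0.22 (adjusted p = 0.00839 and 0.0158). Averaged over diets both probe sets stayed called in each alternative fit, while the control-diet calls of both ended when array 1 or 2 of either group was left out, with adjusted p up to 0.23. The dimmer control-diet call also ended without the trend, with a robust prior and with a pseudocount of 32, which brought its averaged difference to 0.69 (still called), and both control-diet calls ended with only the groups compared (0.173 and 0.126). On the quercetin diet the brighter probe set lost its call without wild-type quercetin array 2 (adjusted p = 0.05), and the dimmer one without wild-type quercetin array 1 or POR-null quercetin array 1 or 2 (up to 0.0775).

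Elovl5 lengthens the unsaturated chains that Fads2 makes, on the route to arachidonic acid. Its probe set 1437211_x_at read 10.16, 9.92 and 9.77 in wild-type control liver and 10.26, 10.56 and 10.69 in wild-type quercetin liver. The POR-null arrays read 11.29, 11.28 and 10.76 on the control diet and 11.20, 11.14 and 11.14 on quercetin. The wild-type control arrays were the lowest of the 12 and the wild-type quercetin arrays lay between them and the POR-null arrays. The difference between genotypes was 0.91 ± 0.10 (SE, adjusted p = 0.000273), a fold of 1.87.

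The other Elovl5 probe set (1415840_at) read 10.32, 9.90 and 9.73 in wild-type control liver, 10.20, 10.65 and 10.77 in wild-type quercetin liver, 11.23, 11.09 and 10.84 in POR-null control liver and 11.10, 11.04 and 11.01 in POR-null quercetin liver. Here wild-type control array 1 lay above wild-type quercetin array 1, so the diets overlapped in wild-type liver. This probe set gave 0.79 ± 0.11 (SE, adjusted p = 0.00108), and the pair correlated at 0.984. On the control diet the differences were 1.07 ± 0.16 and 1.16 ± 0.14 for 1415840_at and 1437211_x_at (adjusted p = 0.00889 and 0.00249). On quercetin they were 0.51 ± 0.16 and 0.66 ± 0.14 (adjusted p = 0.112 and 0.0292), and the call of 1437211_x_at held in 1 of the 6 fits that left out an array, the one without wild-type quercetin array 3, and ended with 1 row per gene (adjusted p = 0.0642). Without wild-type control arrays 2 and 3 the control-diet differences were 0.74 and 0.94 and no longer called (adjusted p = 0.313 and 0.162), with the remaining array assumed to vary like the other groups. Averaged over diets they were then 0.62 and 0.80 and still called (adjusted p = 0.019 and 0.00694).

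Elovl2 acts after Elovl5, on the longer polyunsaturated chains that lead to docosahexaenoic acid. It read 9.46, 9.33 and 8.97 in wild-type control liver, 9.27, 9.54 and 9.80 in wild-type quercetin liver, 9.85, 9.94 and 9.93 in POR-null control liver and 9.47, 9.54 and 9.70 in POR-null quercetin liver. POR-null control liver was above wild-type control liver in every array, as for 8.04% of all probe sets. On quercetin the genotypes overlapped. The difference was 0.66 ± 0.14 on the control diet (SE, n = 3 arrays a group, limma adjusted p = 0.0379), 0.03 ± 0.14 on quercetin (adjusted p = 0.927) and 0.34 ± 0.10 averaged (adjusted p = 0.0435). The control-diet call ended, with adjusted p up to 0.13, when array 2 or 3 of wild-type control liver or array 1 or 2 of POR-null control liver was left out, and the averaged call held in 2 of the 12 fits that left out an array, those without wild-type control array 1 and without wild-type quercetin array 3. Without wild-type control arrays 2 and 3 together the differences were 0.45 on the control diet and 0.24 averaged (adjusted p = 0.506 and 0.251). The averaged call also ended with quantile normalization (0.0849) and the control-diet call with only the groups compared (0.102).

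Elovl1 makes saturated and monounsaturated very long chains for sphingolipids and was higher in POR-null liver by a smaller amount. Its brightest probe set (1425676_a_at) ranged from 7.66 to 8.09 over the wild-type arrays and from 8.01 to 8.41 over the POR-null arrays, with a difference of 0.31 ± 0.09 (SE, adjusted p = 0.0572). The other probe sets (1455994_x_at and 1456530_x_at) gave 0.30 ± 0.08 and 0.34 ± 0.09 and were called (adjusted p = 0.0277 and 0.0268). Their suffix marks probes that may also bind other transcripts. Those calls held in 5 and 7 of the 12 fits that left out an array: both ended without array 1 or 2 of wild-type quercetin liver or array 1 of either POR-null group, the first also without wild-type quercetin array 3, or array 2 of either POR-null group, and the second also without wild-type control array 3. Without wild-type control arrays 2 and 3 together the first was still called (adjusted p = 0.0374) and the second was not (0.093). The 3 differences averaged over diets lie within one another's SE. On the quercetin diet only 1456530_x_at was called, at 0.52 ± 0.12 (SE, limma adjusted p = 0.037). There 1425676_a_at and 1455994_x_at had adjusted p of 0.397 and 0.115. The quercetin-diet call ended without array 1 or 2 of either quercetin group (adjusted p up to 0.177).

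Elovl3 makes saturated and monounsaturated chains of intermediate to very long length, and its liver level is known to be higher in males and to vary over the day. It was the member with the lower mean in POR-null liver, without reaching the threshold. It read 9.27, 9.20 and 8.44 in wild-type control liver and 10.50, 10.03 and 9.29 in wild-type quercetin liver. POR-null control liver read 9.34, 7.90 and 8.89, and POR-null quercetin liver 7.74, 8.84 and 8.81. Wild-type quercetin liver was above wild-type control and POR-null quercetin liver in every array and overlapped POR-null control liver, in which array 1 was high. Of all probe sets, 11.8% did not overlap in the first of these comparisons and 25% in the second, in either direction.

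The Elovl3 difference between genotypes was -0.26 ± 0.38 on the control diet (SE, adjusted p = 0.793), -1.48 ± 0.38 on quercetin (adjusted p = 0.0574) and -0.87 ± 0.27 averaged (adjusted p = 0.0652). It passed the threshold on quercetin with array weights, quantile normalization or only the groups compared (adjusted p = 0.0376, 0.0491 and 0.0296) and without wild-type quercetin array 3 (0.0383). Averaged, it passed with array weights and without wild-type quercetin array 3 or POR-null control array 1. Of the male-biased liver genes fixed as a list, 6 of 8 were measured, with list means of 9.97 to 10.6 in wild-type control, 10.2 to 10.5 in wild-type quercetin, 9.37 to 10.3 in POR-null control and 8.91 to 9.82 in POR-null quercetin arrays. Slco1a1, a bile acid and drug uptake transporter on that list, was called lower (-1.34, adjusted p = 0.0014), and Hsd3b5 and Cyp7b1, steroid-metabolising enzymes, differed by -1.79 and -0.84 without a call (adjusted p = 0.056 and 0.0541). The other measured genes of the list were not called either, with 0.02 for Cyp2d9, 0.09 for Cyp4a12a and -0.15 for C8a (adjusted p = 0.925, 0.638 and 0.542), and the list's median was -0.49 with 2 of the 6 above 0. Of 7 clock genes, all measured, 1 was called lower, Per1, a repressor of the clock (-0.37 ± 0.09, SE, adjusted p = 0.0205), and the list's median was -0.227 with 1 gene above 0, Dbp (0.13 ± 0.36, adjusted p = 0.868). The clock list's array means ran from 7.10 to 7.58 in wild-type control, 6.89 to 7.29 in wild-type quercetin, 6.90 to 7.13 in POR-null control and 7.05 to 7.06 in POR-null quercetin liver. The Per1 call ended when POR-null control array 1, wild-type quercetin array 1 or array 2 of the POR-null quercetin group was left out, with an adjusted p of 0.0588 or less, and without wild-type control arrays 2 and 3 (0.188). The part of either list in the Elovl3 values was not tested.

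Scd1, the main liver enzyme that turns stearic into oleic acid, was the brightest of these genes, with probe set 1415964_at at the 99.1 percentile of the mean over all probe sets. It read 11.35, 11.56 and 10.82 in wild-type control liver and 10.84, 10.93 and 10.03 in wild-type quercetin liver. In POR-null liver it read 12.20, 11.70 and 11.99 on the control diet and 12.01, 11.89 and 11.72 on quercetin. Every POR-null array was above every wild-type array, and wild-type quercetin array 3 was the lowest. The difference averaged over diets was 0.99 ± 0.15 (SE, adjusted p = 0.00166).

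The dimmer Scd1 probe set (1415965_at) read 6.35, 5.95 and 5.40 in wild-type control liver, 5.64, 5.81 and 5.16 in wild-type quercetin liver, 7.82, 6.42 and 7.07 in POR-null control liver and 7.51, 7.27 and 6.68 in POR-null quercetin liver. It gave 1.41 ± 0.22 (SE, adjusted p = 0.00192), the largest of the 17 differences averaged over diets, and the pair correlated at 0.921. On quercetin the differences were 1.27 ± 0.22 and 1.61 ± 0.32 (adjusted p = 0.00859 and 0.016). On the control diet they were 0.72 ± 0.22 and 1.20 ± 0.32, with intervals above 0 but no call (adjusted p = 0.126 and 0.0823). Averaged over diets both stayed called in every alternative. On quercetin the call of 1415964_at ended without POR-null quercetin array 1 (adjusted p = 0.0503), and that of 1415965_at without wild-type quercetin array 1 or 3 or POR-null quercetin array 1 or 2 (up to 0.0875) and with a robust prior (0.0692).

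Scd2 is the stearoyl-CoA desaturase of brain and of newborn tissues and was dim in these livers, with all 3 probe sets below the median of all values. Probe set 1415822_at read 4.99, 4.38 and 4.47 in wild-type control liver, 5.004, 4.74 and 4.51 in wild-type quercetin liver, 5.37, 5.22 and 5.03 in POR-null control liver and 5.89, 5.38 and 5.17 in POR-null quercetin liver. The POR-null arrays were all higher, by 0.66 ± 0.14 (SE, adjusted p = 0.00885). Without wild-type control arrays 2 and 3 the difference was 0.47 and not called (adjusted p = 0.125), and with a pseudocount of 32 it was 0.33 and called (0.0113). Probe set 1415823_at differed by 0.35 ± 0.10 (adjusted p = 0.0482), a call kept in 3 of the 12 fits that left out an array, those without array 3 of either quercetin group and without POR-null control array 2. That call also ended without wild-type control arrays 2 and 3 (0.34, adjusted p = 0.21), with array weights (0.32, 0.0715) and with a pseudocount of 32 (0.21, 0.0517).

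The third Scd2 probe set (1415824_at), the dimmest of all with group means of 3.91 to 4.04, had an interval from -0.16 to 0.16 for the difference (adjusted p = 0.993) and correlated with the others at 0.18 and 0.108. So the probe sets of Scd2 disagree. Scd1 and Scd2 are close paralogs on chromosome 19 with 1 protein-coding gene, Scd4, between them, and RNA of one may bind probes of the other, so the Scd2 calls are uncertain. Scd3, the other paralog measured, differed by 0.06 ± 0.07 (adjusted p = 0.64).

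The front-end desaturases were not called. Fads1, which makes the last double bond of arachidonic acid, ranged from 9.75 to 10.70 over the wild-type arrays and from 10.30 to 10.72 over the POR-null arrays. Its difference was 0.06 ± 0.12 (SE, adjusted p = 0.809), with an interval from -0.20 to 0.33, so that a change as large as that of Elovl5, Elovl6 or Scd1 lies outside it. Fads2, which acts first on linoleic and alpha-linolenic acid, ranged from 9.78 to 10.25 over the wild-type and from 9.98 to 10.46 over the POR-null arrays at its brighter probe set (1449325_at). That probe set differed by 0.11 ± 0.10 and 1419031_at by 0.20 ± 0.14 (adjusted p = 0.536 and 0.403), with intervals from -0.10 to 0.31 and from -0.09 to 0.49, and they correlated at 0.932. Fads1 and Fads2 are neighbours on chromosome 19 with no protein-coding gene between them.

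Quercetin called none of the 17 probe sets in either genotype, and 0% of all probe sets passed the threshold (limma). At an unadjusted p under 0.05 there were 4 of the 17 in wild-type liver, where 1942 of all probe sets were that low, and 1 in POR-null liver, where 1581 were. The confidence intervals of the 17 reached a median of 0.337 to either side on the log2 scale, before any adjustment for the number of tests, and responses of the sizes that follow were not called with 3 arrays a group. In wild-type liver 11.8% of all probe sets had no overlap between the quercetin and control arrays, in either direction. Elovl3 was among them, and its difference between quercetin and control diet was 0.97 ± 0.38 (SE, adjusted p = 0.526). For Elovl5 it was 0.55 ± 0.14 at 1437211_x_at and 0.56 ± 0.16 at 1415840_at (adjusted p = 0.361 and 0.39), and the Scd1 difference was -0.64 ± 0.22 at 1415964_at (adjusted p = 0.468) and -0.36 ± 0.32 at 1415965_at (adjusted p = 0.775).

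Without wild-type control array 1, 1 member was called, Elovl5 at 1415840_at (0.72, adjusted p = 0.0483), and the number of all probe sets called went from 0 to 151. The wild-type control arrays enter both this comparison and the genotype comparison on the control diet, so the Elovl5 values of the 2 comparisons are not independent. In POR-null liver the Elovl2 difference was -0.34 ± 0.14 (SE, adjusted p = 0.67). Every quercetin array lay below every control array, where 14.1% of all probe sets did not overlap in either direction. Elovl5 differed there by -0.01 ± 0.16 and 0.05 ± 0.14. The Fads1 difference was -0.31 ± 0.18 in wild-type and -0.10 ± 0.18 in POR-null liver (adjusted p = 0.647 and 0.927). For Elovl6 at 1417404_at it was -0.29 ± 0.16 and -0.12 ± 0.16 (adjusted p = 0.645 and 0.894).

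**Figure D3:**
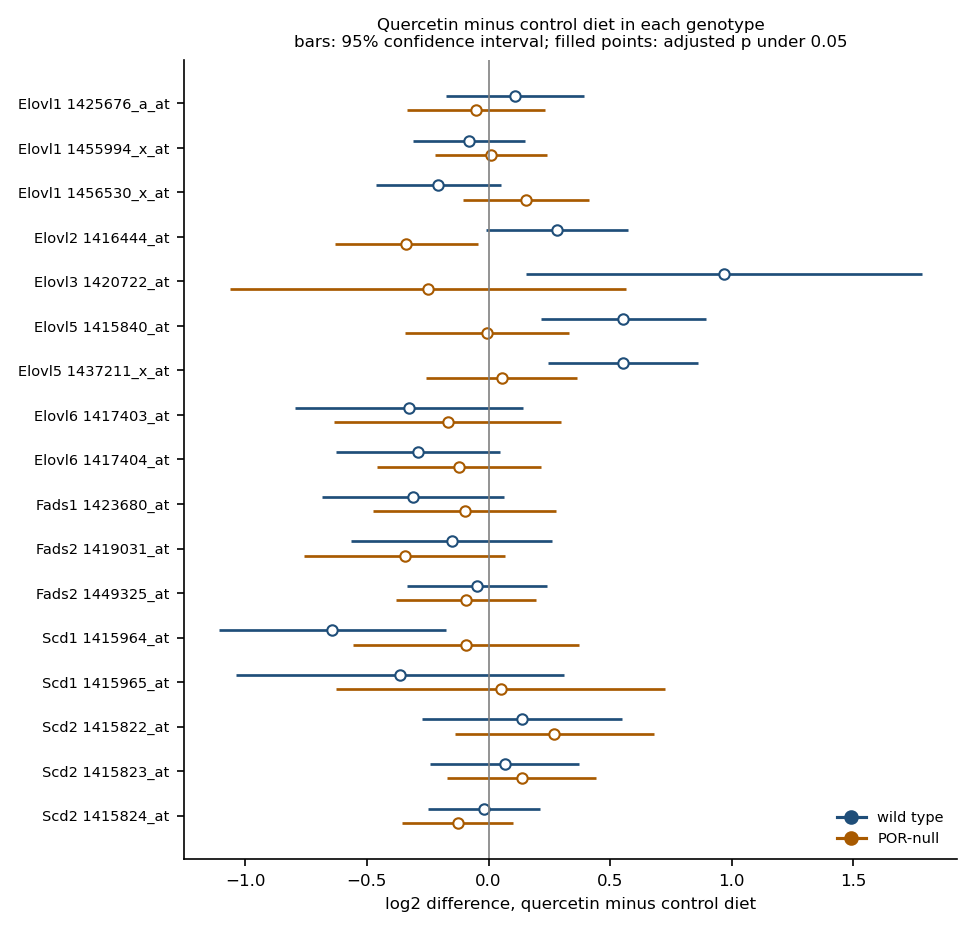
Difference between the quercetin and control diets in wild-type (blue) and POR-null (orange) liver for each probe set, on the log2 scale (horizontal axis); bars are 95% confidence intervals, and a filled point would mark an adjusted p under 0.05. No point is filled; the wild-type points of Elovl3 and Elovl5 lie to the right of 0, at 0.97 and about 0.55, and that of Scd1 1415964_at to the left, at -0.64.

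The response to quercetin was compared between genotypes as the interaction, the POR-null response minus the wild-type response. None of the 17 probe sets was called, and 0% of all probe sets passed (limma), with 4 of the 17 and 1397 of all probe sets at an unadjusted p under 0.05. Those 4 were Elovl2 (-0.62 ± 0.19), Elovl3 (-1.22 ± 0.54) and both probe sets of Elovl5 (-0.56 ± 0.22 and -0.50 ± 0.20), with adjusted p of 0.798 to 0.803. The Scd1 interaction was 0.55 ± 0.31 at 1415964_at (adjusted p = 0.827), and Elovl6 gave 0.17 ± 0.22 at 1417404_at (adjusted p = 0.908). The intervals reached a median of 0.477 to either side. The data therefore show neither that the genotype differences of Elovl2, Elovl3 and Elovl5 depend on the diet nor that they do not.

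Around these enzymes, 6 lists of pathway genes held 61 genes, of which 51 were measured and each was represented by its brightest probe set. Averaged over diets, 10 of the 51 rose in POR-null liver and 0 fell, where 7.94% of all genes were called in either direction (630 higher and 354 lower of 12393). Their median difference was 0.09, against -0.02 over all genes, with 36 of 51 above 0. The count was 6 without POR-null control array 1 and 5 without wild-type control arrays 2 and 3. On each diet alone 2 rose, Thrsp and Acsl4 on the control diet and Thrsp and Lpcat3 on quercetin, against 1.24% and 2.49% of all genes, and quercetin and the interaction called 0 of the 51.

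Of the 11 measured genes of the elongation cycle and of other elongases and desaturases, 3 rose: Hacd1 and Hacd3, dehydratases of the elongation cycle, by 0.43 ± 0.10 and 0.26 ± 0.06 (SE, adjusted p = 0.0231 and 0.018), and Degs1, the desaturase that makes ceramide, by 0.32 ± 0.07 (adjusted p = 0.00891). The list's median was 0.06. Hacd1 lost its call without array 1 of any group but wild-type control or without POR-null control array 2, and Hacd3 without wild-type quercetin array 2 or POR-null control array 1. Neither was called without wild-type control arrays 2 and 3 (adjusted p = 0.121 and 0.106), and with quantile normalization Hacd3 was 0.15 and not called (0.124). The ketoacyl reductase Hsd17b12 differed by 0.23 ± 0.09 (adjusted p = 0.145) and the enoyl reductase Tecr by 0.02 ± 0.10 (adjusted p = 0.914). Members of the shared cycle did not all pass with the elongases.

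None of the 5 measured genes of microsomal electron supply was called, and their median was 0.09. Cyb5a, the cytochrome b5 that feeds the desaturases, differed by 0.22 ± 0.07 (SE, adjusted p = 0.0556), its mitochondrial relative Cyb5b by -0.21 ± 0.08 (adjusted p = 0.128) and the reductase Cyb5r3 by 0.09 ± 0.08 (adjusted p = 0.557).

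Of the 11 measured regulators 1 rose, and it had the largest difference of all listed genes. Thrsp (Spot 14), a nuclear protein tied to lipogenesis and induced by thyroid hormone and carbohydrate, read 6.33, 6.92 and 7.84 in wild-type control liver, 6.64, 6.90 and 6.94 in wild-type quercetin liver, 9.63, 9.19 and 9.16 in POR-null control liver and 8.99, 10.01 and 9.60 in POR-null quercetin liver. The POR-null arrays were all above the wild-type arrays, and wild-type control array 3 was the highest wild-type array, as it was for Elovl6. The Thrsp difference was 2.50 ± 0.21 (SE, adjusted p = 1.89e-05), 2.30 on the control diet and 2.71 on quercetin (adjusted p = 0.00329 and 0.000636). Srebf1, which encodes SREBP-1c, differed by -0.03 ± 0.14 (adjusted p = 0.931), Mlxipl, which encodes ChREBP, by -0.19 ± 0.08 (adjusted p = 0.2) and Nr1h3, which encodes LXR alpha, by 0.06 ± 0.07 (adjusted p = 0.631). These are RNA levels and do not report the processing or activity of the proteins.

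In the list of substrate supply 4 of 9 measured genes rose, and the median was 0.27, with all 9 above 0. They are Acacb and Fasn, which make malonyl-CoA and palmitate, Acss2, which activates acetate, and Acsl4, which activates arachidonic acid, with differences of 0.64, 0.47, 0.52 and 0.49 (adjusted p = 0.00473, 0.0424, 0.0187 and 0.0152). Acacb, Acss2 and Acsl4 stayed called in all 12 fits that left out an array. Fasn did so in 4, losing its call without array 1 or 2 of wild-type control or of either POR-null group, or array 1 or 3 of wild-type quercetin liver. Without wild-type control arrays 2 and 3, Acss2 and Acsl4 had an adjusted p of 0.063 and 0.0515. With 1 row per gene, the mean of its probe sets, neither was called: Acsl4 was 0.18 (adjusted p = 0.219) and Acss2 0.44 (0.0544). Fasn was not called with quantile normalization (0.0799). The control-diet call of Acsl4 held in 1 of 6 fits that left out an array, the one without POR-null control array 3, and the value was 0.12 with 1 row per gene (adjusted p = 0.669) and 0.84 without wild-type control arrays 2 and 3 (0.34).

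Peroxisomal chain shortening, the last step to docosahexaenoic acid, had 1 of 7 measured genes higher, the dim transporter gene Abcd2 (0.43, adjusted p = 0.0426), whose call held in 3 of 12 fits that left out an array: those without wild-type control array 1 and without array 3 of wild-type quercetin or POR-null control liver. Without wild-type control arrays 2 and 3 Abcd2 was not called (0.37, adjusted p = 0.24), and with a pseudocount of 32 it was 0.18. Of 8 measured genes of acyl transfer 1 rose, Lpcat3, which puts polyunsaturated chains into phospholipids, by 0.55 ± 0.08 (SE, adjusted p = 0.00121). Lpcat3 stayed called without any 1 array and without wild-type control arrays 2 and 3. On quercetin its difference was 0.65 (adjusted p = 0.00882), with an adjusted p of 0.05 without wild-type quercetin array 2. The list medians were 0.09 for chain shortening and 0.04 for acyl transfer.

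**Figure D4:**
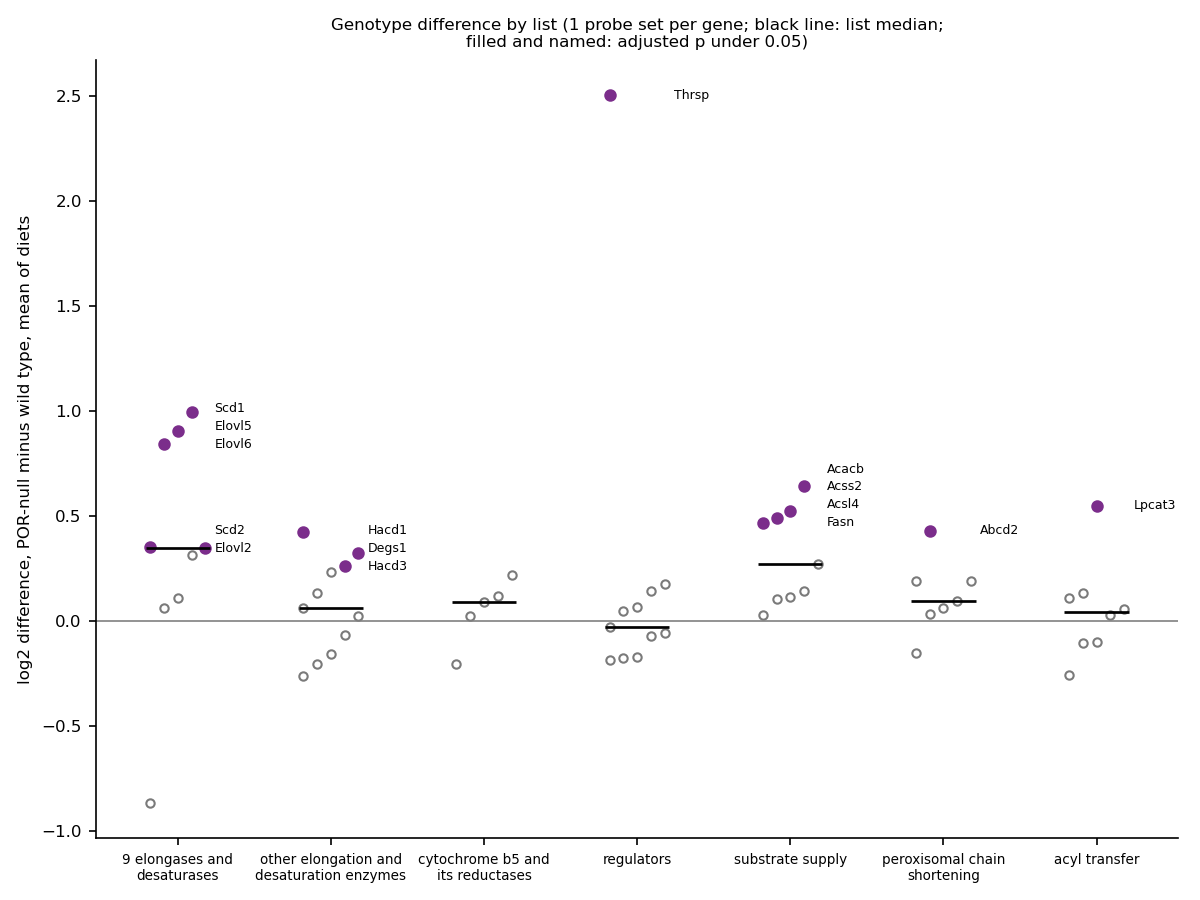
Difference between POR-null and wild-type liver averaged over diets, on the log2 scale (vertical axis), for the 9 genes and for the 6 pathway lists (horizontal axis); each point is 1 gene by its brightest probe set, the black line is the list median, and filled, named points have an adjusted p under 0.05. Thrsp lies at 2.50, Scd1, Elovl5 and Elovl6 between 0.84 and 0.99, and Elovl3 at -0.87; Elovl1 is unfilled because its brightest probe set is.

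Some markers of other cells were called higher in POR-null liver averaged over diets, where 7.94% of all genes were called in either direction. In the macrophage and Kupffer cell list all 12 genes were measured and 4 rose (Lyz2, C1qa, Mpeg1 and Cd5l). The list median was 0.41 with 10 of 12 above 0, while Marco and Adgre1 had lower means in POR-null liver, uncalled. The list's array means ran from 7.11 to 7.63 in wild-type control and 7.32 to 8.12 in wild-type quercetin liver. They ran from 7.66 to 8.01 in POR-null control and 7.78 to 7.99 in POR-null quercetin liver. Wild-type control arrays 2 and 3 were the lowest, and without them Mpeg1 was called and Lyz2, C1qa and Cd5l, at 0.46, 0.24 and 0.46, were not (adjusted p = 0.326, 0.349 and 0.312). Over the 12 fits that left out 1 array, Mpeg1 was called in all, Cd5l in 5, Lyz2 in 3 and C1qa in 2. In the adipocyte list 6 of 8 were measured and 2 rose, Pparg and Fabp4 by 0.55 and 1.35 (limma adjusted p = 0.00123 and 0.00122). The list median was 0.02 with 4 of 6 above 0 averaged over diets, and -0.03 with 2 of 6 above 0 on quercetin. Its array means were 5.43 to 5.57 in wild-type control and 5.50 to 5.55 in wild-type quercetin liver. They were 5.55 to 5.87 in POR-null control and 5.78 to 5.81 in POR-null quercetin liver. The Fabp4 difference was 0.64 with 1 row per gene and 0.87 with a pseudocount of 32, still called. The defining adipocyte genes Adipoq and Lep were below the lower quartile in all 12 arrays. In the stellate cell and matrix list, with all 8 measured, 1 rose, Sparc, by 0.39 averaged and 0.57 on the control diet (adjusted p = 0.0139 and 0.045), not called without wild-type control arrays 2 and 3 (0.141 and 0.625). Its control-diet call held in 1 of 6 fits that left out an array, and the array means of the whole list ran from 6.69 to 6.91 in wild-type and from 6.74 to 7.09 in POR-null liver. The median of that list was 0.067 averaged over diets, with 6 of 8 above 0. None of the 4 cholangiocyte genes measured was called. The part of these cells' RNA in the differences of the elongases and desaturases was not tested.

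The genes whose arrays ran most like each called member were taken from the 7393 or 7394 other single-symbol probe sets above the median, by Pearson correlation over the 12 arrays, and since genotype sets much of this spread the values describe these arrays only. Elovl5 ran most like Cpt1a, the gate of mitochondrial fatty acid oxidation (0.963), Cideb, a lipid droplet and lipoprotein protein (0.962), and Eps15 (0.961). Elovl6 ran most like Thrsp (0.95), Sec16a (0.941) and Mif (0.931). The Scd1 neighbours were Mrpl36 (0.897), Csad (0.895) and Entpd5 (0.874), and those of Scd2 were Shisa5 (0.954), Sesn3 (0.917) and Acad9 (0.906). For Elovl1 they were Pebp1 (0.913), Car3 (0.908) and Cd74 (0.9), and for Elovl2 Klhl9 (0.874), Snx2 (0.862) and Rnf34 (0.859). Elovl3, Fads1 and Fads2 were not searched, being uncalled. None of the other members above the median was among these 3 nearest genes.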

How the data were processed

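The deposited log2 values, 1 column per array of pooled liver RNA, were used as given. Both MAS5 and RMA are named, with no role or version, in the submitters' processing notes; which one the authors used for the deposited log2 values is not given in the sources used here. Of 22690 probe sets 64 controls were left out and 22626 were tested; 20380 carry 1 symbol in the platform annotation, 691 several and 1555 none. Groups follow the sample titles.

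Differences were fitted with limma 3.58.1 in R 4.3.3 (1 mean per group over all 12 arrays, eBayes with an intensity trend), two-sided, adjusted by Benjamini-Hochberg over all probe sets tested, with a threshold of 0.05. P-values measure the spread between pools, and the number of arrays limits precision. Fold changes are differences of log2 means. The fit was tested on simulated data. The genes and lists were chosen with earlier results of these data known. Named are all 9 genes, the listed pathway genes that were called or had the lowest p, and the 3 genes most like each called gene; other pathway and marker genes quoted were picked after their values were seen.

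Alternatives were a filter on dim probe sets, quantile normalization, no trend, a robust prior, array weights, the pool number as a replicate block, 1 row per gene in place of probe sets, only the groups compared, a pseudocount of 32 and leaving out each array. Leaving out wild-type control arrays 2 and 3 together, and all alternatives for the pathway genes, were chosen after seeing the data. Promoters come from RefSeq GRCm38.p6. Figures were drawn with matplotlib 3.10.9.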

Additional observations from a re-analysis of the deposited data

How the results depend on the processing

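No result reversed. Averaged over diets, both probe sets of Elovl5, Elovl6 and Scd1 were called in every alternative that tested them. Of 2048 alternative values of the 17 probe sets, 1854 kept direction and side of the threshold, 84 lost a call, 19 gained one, and 91 are uncalled values that changed sign. The number of members called between genotypes was 5 on the control diet (2 with only the groups compared, 3 by genes, 2 without wild-type control arrays 2 and 3, and 2 to 5 over arrays left out), 6 on quercetin (2 by genes, 1 to 6) and 11 averaged (6 by genes, 7 without those arrays, 7 to 11). Quercetin in wild-type liver called 0 to 1 members over arrays left out. Averaged over diets, 10 pathway genes were called, 5 without wild-type control arrays 2 and 3, and 6 to 12 over arrays left out.

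Over all probe sets, 262 were called on the control diet (30 with only the groups compared, 110 by genes, 29 without wild-type control arrays 2 and 3, 35 to 756 over arrays left out), 527 on quercetin (1052 with array weights, 950 with only the groups compared, 127 to 389) and 1714 averaged (1061 by genes, 757 without those arrays, 991 to 2128). Quercetin in wild-type liver called 1 without the 40% dimmest probe sets, 1 without the trend, 2 with the replicate block, 1 without wild-type control arrays 2 and 3, and 0 to 151 over arrays left out. In POR-null liver it called 0 to 4, averaged over genotypes 0 to 24, and the interaction 0 to 1. The cause of these moves was not tested, except that the fits by genes and with fewer arrays test fewer features or samples.

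Same-numbered arrays of different groups correlated at -0.184 to 0.235 after removal of group means, with 5 of 18 pairs over 0.1. Their median was 0.0455, against -0.011 for arrays of different numbers. Of the 12 arrays, 6 correlated best with an array of their own number. These values do not settle whether the numbers pair the samples. With the number as a replicate block, 5, 6 and 9 members were called on the control diet, on quercetin and averaged, out of 241, 489 and 1647 of all probe sets. The block ended the calls of Elovl2, control diet and averaged (adjusted p = 0.0507 and 0.0595), Elovl6 1417403_at, control diet (0.0573), Elovl1 1456530_x_at, quercetin (0.0509), and Scd2 1415823_at, averaged (0.0628), and added calls of Scd1 1415965_at and Scd2 1415822_at, control diet (0.0269 and 0.0237), and the latter on quercetin (0.00554).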

Other observations

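Within groups, Elovl6 and Scd1 at their brightest probe sets did not run together array by array although both were higher in POR-null liver. In wild-type control liver array 3 had the highest Elovl6 (7.67 at 1417404_at) and the lowest Scd1 (10.82 at 1415964_at). In POR-null control liver array 1 had the highest Scd1 (12.20), while array 2 had the highest Elovl6 (8.11, against 8.065 in array 1). The dimmer Elovl6 probe set (1417403_at) was there highest in array 1, at 6.776 against 6.769 in array 2. Over the 12 arrays their correlation was 0.68, and after removal of group means it was -0.686, values given as a description of 12 pools. Fads1 and Fads2, the neighbouring desaturase genes, correlated at 0.589 both before and after removal of group means.

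The exocrine pancreas list, with 9 of 11 genes measured, had no call in the genotype comparison. Averaged over diets all 9 were above 0, with a list median of 0.52. The median was 0.997 on quercetin and -0.06 on the control diet, where 4 of 9 were above 0. Its array means ran from 6.44 to 8.70 in wild-type and from 6.74 to 8.50 in POR-null control liver. In POR-null quercetin liver they ran from 7.06 to 9.98, with array 3 the highest. In POR-null quercetin array 3, Elovl6 at 1417404_at (7.88) and Scd1 at 1415964_at (11.72) lay within the range of the other POR-null arrays. Elovl1 at 1425676_a_at (8.005) lay below the range of the others (8.084 to 8.409). The part of pancreas RNA in the values of the elongases and desaturases was not tested.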
